A study of Mus musculus with 6 samples.

Results

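The genes described here are 9 parts of the Hedgehog pathway: the ligand gene Shh, the receptor gene Ptch1, the inhibitor gene Hhip, the co-receptor genes Boc, Cdon and Gas1, and the transcription factor genes Gli1, Gli2 and Gli3. They were taken by symbol from the array's probe-to-gene annotation, with no filter on brightness, and each had exactly 1 probe set, so 9 of the 21789 probe sets with 1 gene symbol (9 of 19938 genes) are members. RNA came from 6 mouse embryo heads at E10.5, 3 labelled Tasp1 knockout (KO, from a Taspase1 knock-out) and 3 labelled wild type (WT), each read on 1 Affymetrix array. All embryos came from intercrosses of Tasp1 heterozygous parents on the C57Bl6 background, the forebrain and midbrain part of the head was taken, and no further allele or agent is named. The labels do not say which exons the knockout allele lacks. The labels call the embryos biological replicates but name no litter. The array signals are on the log2 scale as deposited, and every difference below is the KO-labelled mean less the WT-labelled mean. On an array, the level of 1 probe set cannot be set against that of another, so each gene was compared only with itself across heads. In dissected heads, fewer cells of a type and less RNA per cell cannot be told apart.

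Hedgehog signalling starts when SHH, a secreted protein, binds the membrane protein PTCH1 and so releases the transducer SMO from inhibition. BOC, CDON and GAS1 are membrane-bound co-receptors that bind SHH and help it reach PTCH1, while HHIP binds the ligand and keeps it from signalling. In the early mouse forebrain and midbrain, SHH comes from the ventral midline and its source tissue, and loss of SHH or of combinations of co-receptors is known to cause holoprosencephaly. Gli1, Ptch1 and Hhip are themselves switched on by the pathway and are commonly read as its output, whereas Boc, Cdon and Gas1 are known to be lowered by it in the mouse.

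The comparison asked whether loss of Taspase1, the protease encoded by Tasp1, changed transcript levels in the head, and here whether the co-receptors and the readouts moved alike. Boc and Gas1 signals were lower in KO-labelled heads, at 0.866 and 0.892 times the WT-labelled level, and the signals of the readouts Ptch1, Gli1 and Hhip were 1.08, 1.05 and 1.14 times that level. None of the 9 members passed the test over all probe sets (limma, smallest adjusted p = 0.782), where 0% of 21789 probe sets passed at an adjusted p of 0.05. At an unadjusted p under 0.05 stood 2 of 9 members, both lower, against 6.21% of all probe sets in either direction, 3.89% on the lower side and 2.32% on the higher side. Of the members, 5 were higher and 4 lower, with a median difference of +0.02, against a median of −0.01 over all probe sets tested, of which 43.7% were above 0 and 56.3% below. In 0 of 9 members did the groups fail to overlap, against 10.9% of all probe sets.

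The arrays were alike, each pair correlating across probe sets with a Pearson r between 0.996 and 0.998, and array medians from 7.35 to 7.45. The Tasp1 signal read 8.63, 8.63 and 8.50 in KO-labelled heads and 8.10, 8.45 and 8.49 in WT-labelled heads. It was thus not lower in KO-labelled heads, and as the place of its probe set relative to the deletion is not given, it does not check the labels. Xist was high in WT 2 alone (12.32, where the rest read 4.90 to 5.24), so the sexes of the embryos were not balanced between the groups. Without WT 2 the differences were −0.23 for Boc, −0.19 for Gas1, +0.10 for Ptch1, +0.16 for Hhip and +0.04 for Gli1, and none passed (limma, adjusted p from 0.850 to 0.965). All 9 members had a mean above 7.06, the log2 signal under which the dimmest 40% of probe sets lay, and 0 of them lie on chromosome 2 with Tasp1.

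**Figure D1:**
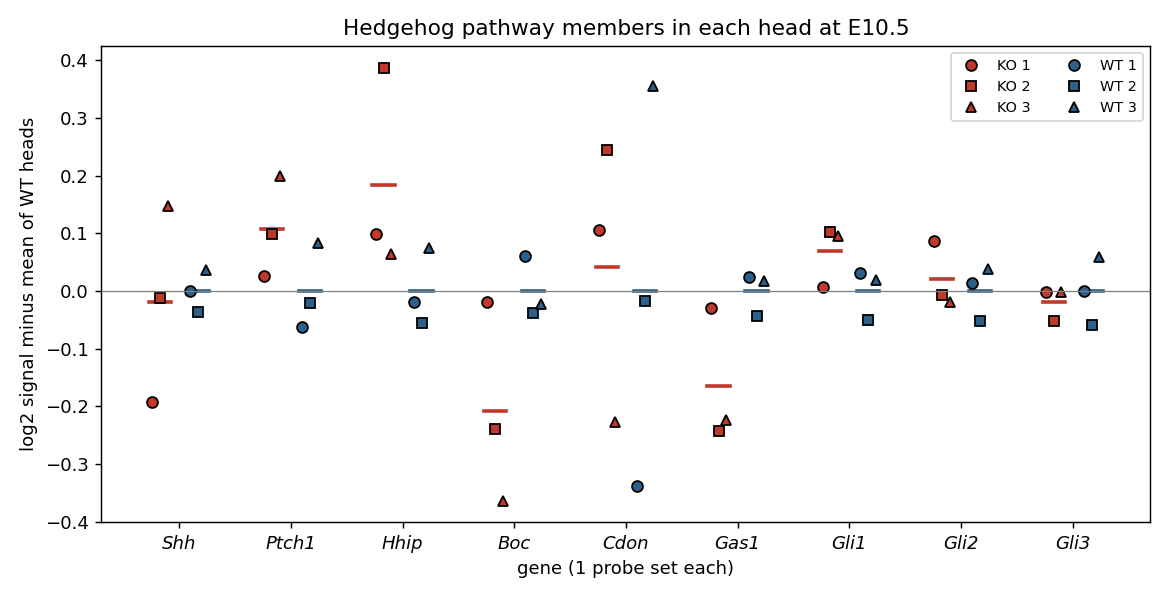
Log2 signal of each member in each head, minus the mean of the 3 WT-labelled heads for that gene; short bars are group means and symbols mark the head number. Boc and Gas1 in KO 2 and KO 3 lie below all WT-labelled heads while KO 1 lies beside them, and Cdon spreads widely in both groups.

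The ligand gene Shh (probe set 10528872, chromosome 5) read 9.22, 9.40 and 9.56 in KO-labelled heads and 9.42, 9.38 and 9.45 in WT-labelled heads. KO 1 held the lowest and KO 3 the highest of the 6 values, with the WT-labelled heads between them, so the groups overlapped fully. The difference was −0.02 (limma, SE 0.08, adjusted p = 0.981), and its 95% confidence interval as a ratio ran from 0.873 to 1.12. The standard deviation was 0.17 in KO-labelled heads and 0.04 in WT-labelled heads (n = 3 each). Without KO 1 the Shh difference was +0.07 and without KO 3 it was −0.10, and neither passed (limma adjusted p = 0.993 and 0.745).

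The receptor gene Ptch1 (probe set 10410039, chromosome 13) read 11.27, 11.34 and 11.44 in KO-labelled heads and 11.18, 11.22 and 11.33 in WT-labelled heads. KO 2 and KO 3 lay above every WT-labelled head, and KO 1 lay below WT 3. Ptch1 averaged 11.35 ± 0.09 in KO-labelled heads and 11.24 ± 0.07 in WT-labelled heads (n = 3 each, ± SD). The difference, +0.11 with an SE of 0.06, missed the threshold (limma adjusted p = 0.837; two-sided exact permutation p = 0.2, where 3 against 3 cannot go below 0.1). As a ratio the 95% confidence interval ran from 0.988 to 1.18.

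Hhip (probe set 10579894, chromosome 8), the gene of the ligand-binding inhibitor, read 8.08, 8.37 and 8.05 in KO-labelled heads and 7.96, 7.93 and 8.06 in WT-labelled heads. KO 2 stood apart above the other 5 heads, and KO 3 lay just below WT 3. Hhip averaged 8.17 ± 0.18 in KO-labelled heads and 7.98 ± 0.07 in WT-labelled heads (n = 3 each, ± SD). At +0.18 it had the largest upward difference among the members, which did not pass (limma, SE 0.09, adjusted p = 0.829; two-sided exact permutation p = 0.2). Without KO 2 the Hhip difference was +0.08, less than the value with all heads by over 1.5 times.

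Boc (probe set 10439612, chromosome 16), which encodes an immunoglobulin-superfamily co-receptor also known for its part in axon guidance, read 10.423, 10.203 and 10.079 in KO-labelled heads and 10.503, 10.403 and 10.420 in WT-labelled heads. KO 2 and KO 3 lay below every WT-labelled head, whereas KO 1 lay above WT 2 and WT 3, by a small margin for WT 3. Boc averaged 10.23 ± 0.17 in KO-labelled heads and 10.44 ± 0.05 in WT-labelled heads (n = 3 each, ± SD). Boc thus had the largest difference of the members, −0.21, and it did not pass (limma, SE 0.08, unadjusted p = 0.0242, adjusted p = 0.782; two-sided exact permutation p = 0.3). As a ratio, the 95% confidence interval was 0.768 to 0.977. Without KO 1 the difference was −0.30 (limma adjusted p = 0.306), and without KO 3 it was −0.13 (0.706).

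Gas1 (probe set 10409833, chromosome 13) encodes a co-receptor held to the membrane by a lipid anchor and unrelated in sequence to BOC and CDON. It read 10.40, 10.19 and 10.21 in KO-labelled heads and 10.45, 10.39 and 10.45 in WT-labelled heads. The pattern over heads was that of Boc, with KO 2 and KO 3 low and KO 1 inside the WT-labelled range, just above WT 2. Gas1 averaged 10.26 ± 0.12 in KO-labelled heads and 10.43 ± 0.04 in WT-labelled heads (n = 3 each, ± SD). Their difference was −0.16 and missed the threshold (limma, SE 0.06, unadjusted p = 0.0238, adjusted p = 0.782; two-sided exact permutation p = 0.2). The ratio's 95% confidence interval ran from 0.811 to 0.982. Without KO 1 the Gas1 difference was −0.23 (limma adjusted p = 0.416).

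Cdon (probe set 10584229, chromosome 9), the gene of BOC's closest relative, read 8.62, 8.76 and 8.29 in KO-labelled heads and 8.18, 8.50 and 8.87 in WT-labelled heads. WT 1 held the lowest and WT 3 the highest value, and the 6 heads spanned 0.69 log2 units, the widest range of the members. Cdon averaged 8.56 ± 0.24 in KO-labelled heads and 8.52 ± 0.35 in WT-labelled heads (n = 3 each, ± SD). The direction of the difference, +0.04, depended on single heads (limma, SE 0.16, adjusted p = 0.980). It was −0.13 without WT 1, −0.06 without KO 2, +0.22 without WT 3 and +0.18 without KO 3. The interval of the ratio, 0.802 to 1.32, was too wide to tell a change of the size seen for Boc or Gas1 from none.

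**Figure D2:**
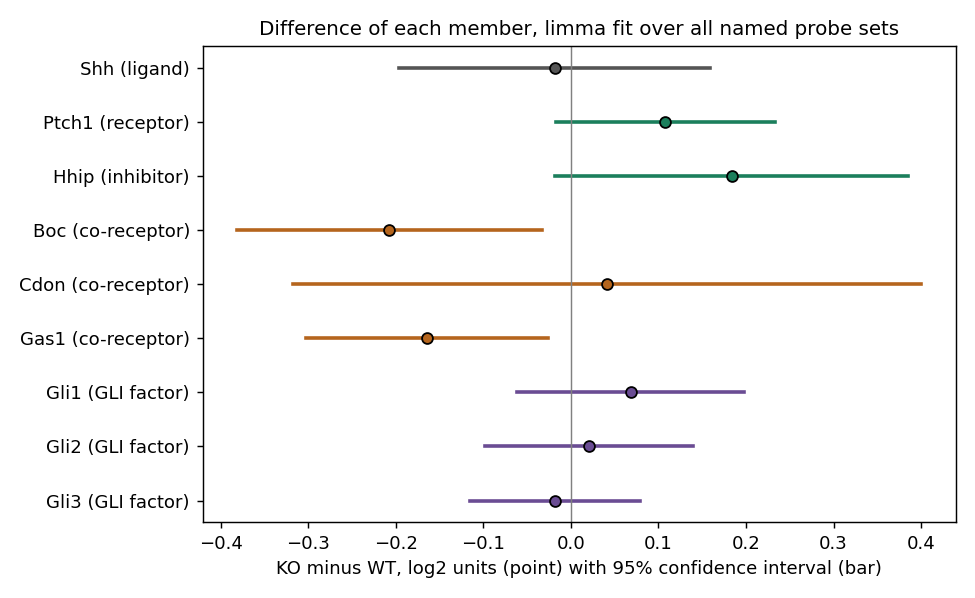
KO-labelled minus WT-labelled difference of each member in log2 units (points) with its 95% confidence interval (bars), coloured by role. The intervals of Boc (−0.38 to −0.03) and Gas1 (−0.30 to −0.03) lie below 0 before adjustment over all probe sets, and those of the other 7 members include 0.

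Of the GLI factors, Gli1 (probe set 10373179, chromosome 10), an activator whose own transcript depends on the pathway, read 9.02, 9.11 and 9.10 in KO-labelled heads and 9.04, 8.96 and 9.03 in WT-labelled heads. KO 2 and KO 3 were the highest of the 6 heads, and KO 1 lay within the WT-labelled range. The difference was +0.07 (limma, SE 0.06, adjusted p = 0.899), and the interval of the ratio ran from 0.958 to 1.15. Gli2 (probe set 10357137, chromosome 1), the main activator in the mouse neural tube, read 10.05, 9.96 and 9.94 in KO-labelled heads and 9.98, 9.91 and 10.00 in WT-labelled heads. Gli3 (probe set 10403727, chromosome 13), known mainly as the repressor form that limits the pathway dorsally, read 11.55, 11.50 and 11.55 in KO-labelled heads and 11.55, 11.49 and 11.61 in WT-labelled heads. The groups overlapped in both genes. The Gli2 difference of +0.02 became −0.0068 with each array centred on its median, and the Gli3 difference was −0.02 (limma adjusted p = 0.971 and 0.965). Their intervals were narrow, 0.934 to 1.10 for the Gli2 ratio and 0.923 to 1.06 for the Gli3 ratio.

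Co-receptors and readouts were then set side by side within each head, with every gene centred on its mean over the 6 heads. The mean of Boc, Cdon and Gas1 was 0.07, −0.02 and −0.22 in KO-labelled heads and −0.03, 0.02 and 0.17 in WT-labelled heads. The mean of Gli1, Ptch1 and Hhip was −0.02, 0.14 and 0.06 in KO-labelled heads and −0.08, −0.10 and −0.0016 in WT-labelled heads. Co-receptors minus readouts gave 0.09, −0.16 and −0.28 in KO-labelled heads and 0.05, 0.12 and 0.17 in WT-labelled heads. KO 2 and KO 3 lay below all WT-labelled heads, and KO 1 lay between WT 1 and WT 2. The mean was −0.12 ± 0.19 in KO-labelled heads and 0.12 ± 0.06 in WT-labelled heads (n = 3 each, ± SD). The difference of −0.23 is the −0.11 of the co-receptors less the +0.12 of the readouts. It is given as a description without a test, because the genes were chosen with results of these data known. With each head left out in turn the difference ran from −0.33 (without KO 1) to −0.15 (without KO 3). With Cdon left out, a choice made after seeing the data, it was −0.31. The KO-labelled heads at 0.08, −0.28 and −0.26 then lay below the WT-labelled heads at 0.21, 0.15 and 0.09. KO 1 did so by a small margin. Cdon was the 1 co-receptor not lower in KO-labelled heads, so leaving it out widened the difference by construction.

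**Figure D3:**
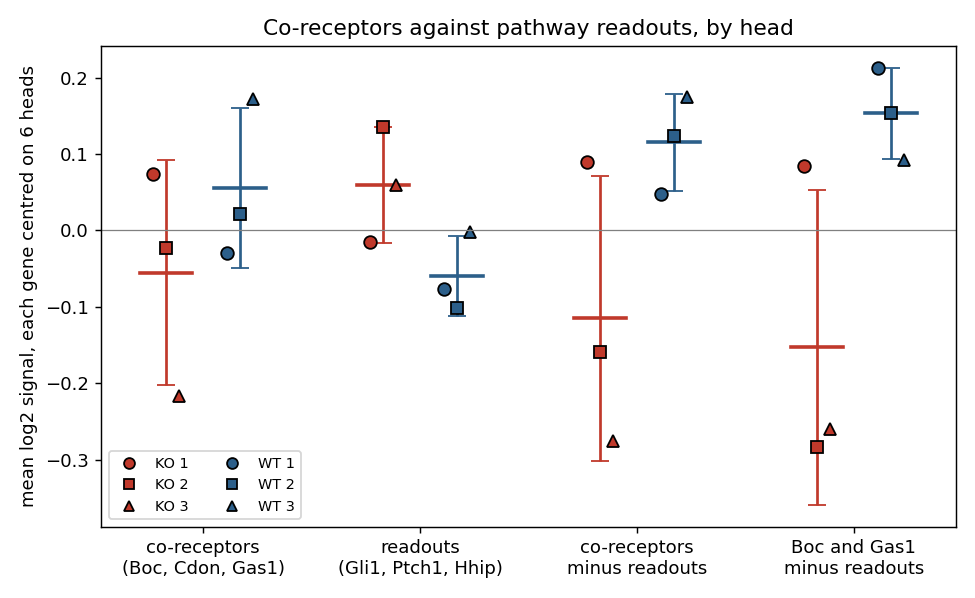
Per-head mean log2 signal of the co-receptors and of the readouts, each gene centred on the 6 heads, and the co-receptors minus the readouts with and without Cdon; lines are group means and error bars 1 SD of 3 heads. KO 2 (−0.16) and KO 3 (−0.28) lie below the WT-labelled heads in co-receptors minus readouts, and KO 1 (0.09) lies among them.

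KO 1 was the KO-labelled head nearest to the WT-labelled mean in 5 of 9 members, against 32.6% of all probe sets. The standard deviation was larger in KO-labelled than in WT-labelled heads in 7 of 9 members, Gli3 and Cdon being the exceptions, against 45.1% of all probe sets. Other tissue markers also differed between the KO-labelled heads. Neuronal markers (9 of 9 measured and above the brightness cut) averaged 9.76, 9.52 and 9.34 in KO-labelled heads and 9.72, 9.87 and 9.61 in WT-labelled heads, in the same order over the KO-labelled heads as Boc. All 9 were lower in KO-labelled heads, led by Neurod1 at −0.46 and Nefm at −0.28, and 0 passed (limma, smallest adjusted p = 0.408). Neurod1 lies on chromosome 2, as Tasp1 does. Cranial mesenchyme markers (13 of 14 measured, all 13 above the brightness cut) averaged 9.81, 9.61 and 9.57 in KO-labelled heads and 9.60, 9.64 and 9.69 in WT-labelled heads, with KO 1 again highest. Among them, 6 were higher and 7 lower, with Dcn at +0.36. Neural progenitor markers (10 of 10 measured, 2 higher and 8 lower) averaged 10.70, 10.67 and 10.64 in KO-labelled heads and 10.75, 10.67 and 10.70 in WT-labelled heads. The order over the KO-labelled heads was thus shared by these 3 marker lists and not particular to neurons. Gas1 did not follow it, being lowest in KO 2 by a small margin (10.187, against 10.205 in KO 3). Erythroid markers averaged 11.03, 10.94 and 11.01 and macrophage markers 7.25, 7.05 and 7.23 in KO-labelled heads, which is the order of Gas1. Surface ectoderm, endothelial and hindbrain markers had neither order. The neuronal order over the WT-labelled heads was not that of Boc. The part of these tissue differences in the Boc and Gas1 values was not tested.

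**Figure D4:**
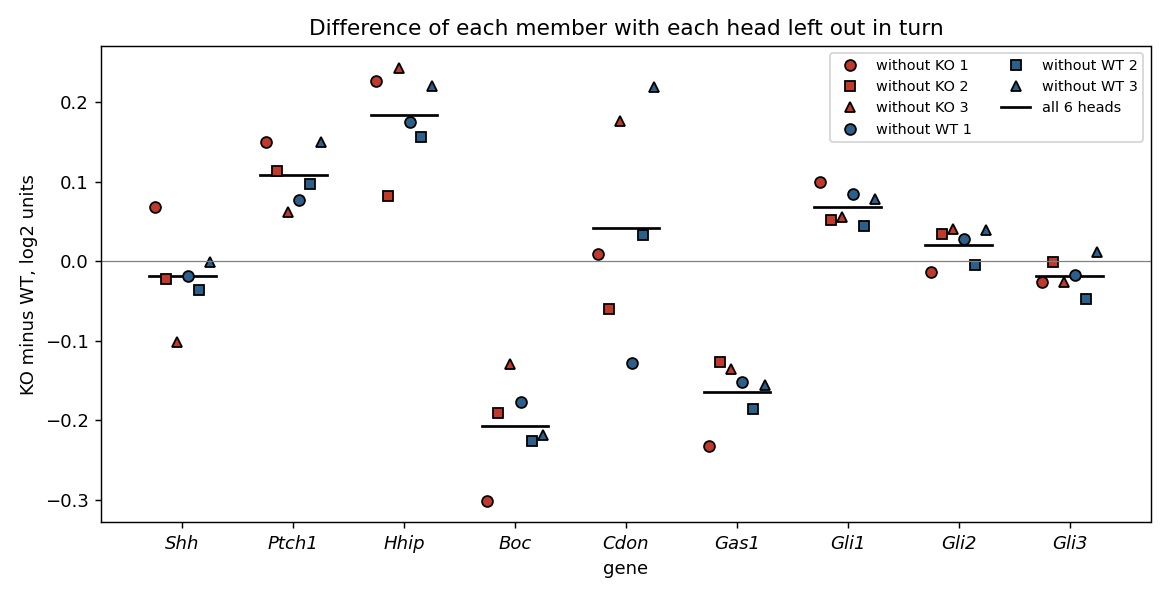
Difference of each member in log2 units with all 6 heads (black lines) and with each head left out in turn (symbols, coloured by the group of the head left out). Boc (−0.30 to −0.13) and Gas1 (−0.23 to −0.13) stay below 0 and Ptch1 (0.06 to 0.15), Hhip (0.08 to 0.24) and Gli1 (0.04 to 0.10) above 0, whereas Shh, Cdon, Gli2 and Gli3 fall on both sides.

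Sequence before the gene start was available for 6 of 9 members, namely Ptch1, Gli2, Gli3, Hhip, Cdon and Gas1 (RefSeq, build GRCm38.p6), and is shown for a readout and a co-receptor that differed in opposite directions, Hhip at +0.18 and Gas1 at −0.16. Each run is the 250 bases before the annotated start, 5′ to 3′ on the gene's strand (the minus strand for both), at chr8:80058009-80058258 for Hhip and chr13:60177536-60177785 for Gas1. Capitals mark the core letters CCACCC of the GLI binding site, or GGGTGG where they lie on the other strand.
Hhip: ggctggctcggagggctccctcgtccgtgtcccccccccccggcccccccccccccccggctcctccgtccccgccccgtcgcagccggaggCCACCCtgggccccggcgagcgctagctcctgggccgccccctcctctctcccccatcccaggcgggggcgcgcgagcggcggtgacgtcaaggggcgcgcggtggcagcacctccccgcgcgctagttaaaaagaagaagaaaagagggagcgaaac
Gas1: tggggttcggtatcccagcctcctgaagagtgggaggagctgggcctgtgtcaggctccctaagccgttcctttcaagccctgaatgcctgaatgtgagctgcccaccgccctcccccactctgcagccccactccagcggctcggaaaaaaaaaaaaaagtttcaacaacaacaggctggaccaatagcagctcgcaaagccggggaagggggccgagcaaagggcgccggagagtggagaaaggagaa
The core was found once before Hhip, 158 bases before the start, and not in the Gas1 run. It was also found 2 times before Gli2 and 1 time before Gli3, and not before Ptch1 or Cdon. Of 32851 promoters, 28.1% held it in the same 250 bases, on either strand. The longer consensus GACCACCCA, which contains that core, was in 0.225% of them and before 0 of the 6 members. Both are matches of letters in this window and say nothing of binding. The 250 bases were 76.0% G and C for Hhip, 58.8% for Gas1, 78.4% for Ptch1 and 42.8% for Cdon, against a median of 52.4% over all promoters.

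Around these members, 87 further genes of the pathway and of the tissues it patterns were measured, and 0 passed (limma, smallest adjusted p = 0.292), while 9 had an unadjusted p under 0.05 (10.3%, against 6.21% of all probe sets). Their median difference was +0.01, 46 being higher and 41 lower. Upstream of the receptor, genes of other ligands and of ligand release (8 measured, 3 higher and 5 lower) had a median of −0.01 and differences from −0.13 to 0.05. Dhh, a ligand gene below the brightness cut, differed by −0.13 and Ihh, a further ligand gene, by −0.06. Scube1, from a family that helps release the ligand, differed by +0.05 and Disp1, which encodes the transporter that releases SHH, by +0.04. At the receptor level (8 of 9 measured, 6 higher and 2 lower, median +0.02), the heparan sulfate proteoglycan genes Gpc3 and Gpc4 stood at +0.10 and −0.12. Evc, which encodes a ciliary partner of SMO, differed by +0.09 and Smo itself by −0.04. The Smo ratio had an interval from 0.914 to 1.03, and in these lists 0 genes had an unadjusted p under 0.05.

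Inside the cell, genes of signal transduction (14 of 16 measured, 5 higher and 9 lower) had a median of −0.02 and none passed. The kinase gene Csnk1a1 differed by +0.10, Sufu, the inhibitor that holds the GLI proteins, by −0.07, the ubiquitin ligase scaffold gene Cul3 by +0.05 and the kinase gene Stk36 by −0.06. Genes of ciliary transport, on which mouse Hedgehog signalling depends, were higher in 11 of 13 (median +0.04), where 43.7% of all probe sets were higher. With each array centred on its median, 9 of 13 were higher (median 0.0086), where 31.1% of all probe sets were. Rpgrip1l, a gene of the ciliary transition zone, differed by +0.17 (limma unadjusted p = 0.0328, adjusted p = 0.791), Ift172 by +0.15, Dync2h1 by +0.09 and Ift88 by +0.06. The mean signal of all 13 ran from 8.82 to 8.93 in KO-labelled heads and from 8.78 to 8.89 in WT-labelled heads, so the groups overlapped in that mean. In Rpgrip1l alone they did not overlap, as in 10.9% of all probe sets.

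Further targets of the pathway (11 of 12 measured, 5 higher and 6 lower) had a median of −0.01. Foxf1, a mesenchymal target, read 9.06, 9.06 and 9.14 in KO-labelled heads and 8.87, 8.55 and 9.06 in WT-labelled heads. All KO-labelled heads were above the highest WT-labelled head, WT 3, KO 1 and KO 2 by a small margin. In 10.9% of all probe sets the groups did not overlap either. The Foxf1 difference was +0.26 (limma, SE 0.11, unadjusted p = 0.0349, adjusted p = 0.791). Without WT 2 the Foxf1 difference was +0.12. The cyclin gene Ccnd2 differed by +0.08, Nr2f2 by −0.07 and Foxf2 by −0.11.

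Of genes listed as ventral neural, some of which SHH induces in the neural tube, 8 were higher and 5 lower (13 of 14 measured, median +0.02). Sim1, a hypothalamic regulator, read 8.97, 9.05 and 9.02 in KO-labelled heads and 8.75, 8.63 and 8.71 in WT-labelled heads. Every KO-labelled head was above every WT-labelled head, where the groups did not overlap in 10.9% of all probe sets. The Sim1 difference of +0.31 did not pass over all probe sets (limma, SE 0.06, adjusted p = 0.292). Nkx2-2, which lies on chromosome 2 as Tasp1 does, differed by +0.22, Nkx2-9 by +0.16 and the floor plate gene Foxa1 by +0.13, and none passed. Their sizes rested on single heads, Nkx2-2 being +0.12 without WT 1, Nkx2-9 +0.02 without WT 2, and Foxa1 +0.05 without KO 3 and +0.23 without WT 1. Of genes listed as dorsal neural, 4 were higher and 9 lower (13 of 15 measured, median −0.11), where 56.3% of all probe sets were lower. Of the 13, 4 had an unadjusted p under 0.05, against 6.21% of all probe sets. These were Zic4 at +0.24, the homeobox gene Gsx1 at −0.26, Msx2, a BMP-responsive gene, at −0.20, and Wnt3a, a dorsal midline ligand gene, at −0.25 (limma, smallest adjusted p = 0.642). Wnt3a lay below the brightness cut. Gsx1 was counted as dorsal here and its relative Gsx2, at −0.13, as ventral. Where these genes were active within the heads was not tested. The mean signal of all 13 dorsal genes was 8.91, 8.90 and 8.91 in KO-labelled heads and 9.10, 8.91 and 8.95 in WT-labelled heads. The list's median ran from −0.16 to −0.01 with each head left out in turn. Genes of regulators that act on the Shh enhancers were 4 higher and 3 lower (7 measured, median 0.0040), with Six6 at −0.18, Six3 at −0.10, Tbx3 at +0.14 and Sox2 at +0.03. Without WT 1 the Tbx3 difference was −0.06. Tbx3 was the 1 gene of the 32 named from these 8 lists whose direction turned with a head left out, and 26 of the others moved by over 1.5 times without at least 1 head.

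**Figure D5:**
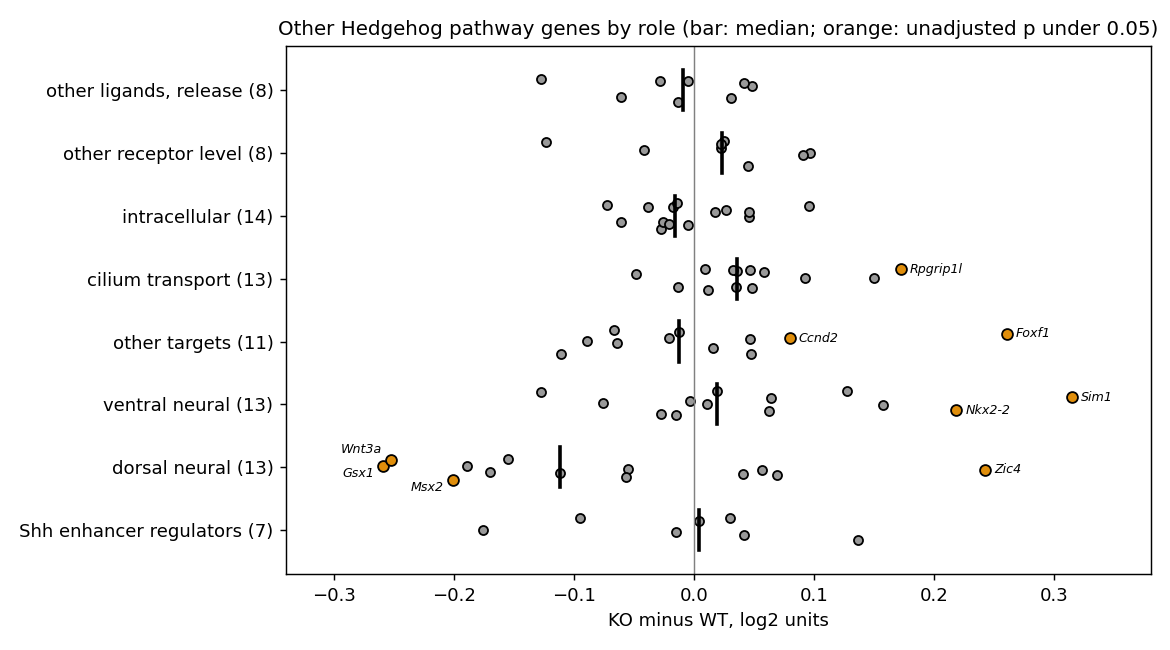
KO-labelled minus WT-labelled difference in log2 units of the other pathway genes, 1 point per gene, grouped by role with the number measured; black bars are medians and orange points have an unadjusted p under 0.05. Medians lie near 0 except for the genes listed as dorsal neural (−0.11), and 0 genes passed the adjusted threshold.

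Markers of further cell types the dissection could hold were measured in the same heads, and 0 genes passed. Surface ectoderm (7 measured) ran from 8.65 to 8.72 in KO-labelled heads and from 8.68 to 8.83 in WT-labelled heads, and endothelium (7 measured) from 8.98 to 9.01 in KO-labelled heads and from 8.98 to 9.09 in WT-labelled heads. The surface ectoderm genes were 3 higher and 4 lower (median −0.0071). Cldn6 stood at −0.32 and Cdh1, the gene of E-cadherin, at +0.16 (limma unadjusted p = 0.0304, adjusted p = 0.791). The endothelial genes were 4 higher and 3 lower (median 0.00092), with Ramp2 at −0.32 and Tek, a receptor gene, at +0.07. Erythroid markers (5 of 6 measured, 0 higher and 5 lower) ran from 10.94 to 11.03 in KO-labelled heads, below the 11.05 to 11.14 of WT-labelled heads, with Hbb-bh1 at −0.21. Macrophage markers (7 measured, 5 above the brightness cut, 1 higher and 6 lower) ran from 7.05 to 7.25 in KO-labelled heads and from 7.28 to 7.33 in WT-labelled heads, with C1qb at −0.30. Hindbrain markers (5 of 6 measured, 0 higher and 5 lower) were dim, with 2 above the brightness cut. Ramp2, Hbb-bh1, Cldn6 and C1qb had smaller unadjusted p than Cdh1 (limma, 0.000506, 0.00208, 0.00236 and 0.00255). The part of these marker differences in the members' values was not tested.

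As a description of likeness over the 6 heads, 11793 genes above the brightness cut were ranked by their Pearson correlation with the mean of the 3 co-receptors. Arfrp1 (r = 0.998), Zfp772 (0.993) and Kctd15 (0.986) came first. Cdon had the widest range over heads in that mean, 0.69, against 0.42 for Boc and 0.27 for Gas1. For the mean of the 3 readouts the first genes were Surf6 (r = 0.993), Ergic2 (0.989) and Cdh20 (0.984). Arfrp1 and Surf6 lie on chromosome 2, as Tasp1 does. With 6 heads, an r above 0.9 was not confined to the genes named. Of the 11793 genes, 156 had such an r with the co-receptors and 145 with the readouts. Of the genes named, Cdh20 had the largest difference between groups, +0.26 (limma adjusted p = 0.792).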

How the data were processed

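RNA of 6 mouse heads was read on 1 array each. The deposited table holds log2 signals for 35556 probe sets. Array medians lay within 7.35 to 7.45, so the values were taken as already normalised between arrays. Affymetrix Expression Console and MAS5 are named, with no version, per the submitters' processing notes; how background, scaling and probe summary were done is not stated there. These values were used as deposited, with no pseudocount.

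Of the probe sets, 21789 had 1 gene symbol in the platform annotation, 1621 had several and 12146 had none listed. All 21789 entered limma 3.58.1 (R 4.3.3; lmFit, eBayes with trend, two-sided, Benjamini-Hochberg over all, threshold 0.05), also dim ones. Chromosomes came from the GRCm38.p6 gene table. In the other lists a gene was represented by its brightest probe set, and up to 4 genes with the smallest p were named, Tasp1 and Xist as checks. The members and lists were chosen with earlier results of these data known. The number of arrays limits the precision. As the labels name no litter, no block was used. Heads with the same replicate number did not deviate together (correlations −0.21, −0.12 and −0.24). Pairs with unlike numbers ran from −0.13 (KO 3 with WT 2) to 0.30 (KO 3 with WT 1). Between these lay KO 2 with WT 3 at 0.27, KO 1 with WT 2 at 0.23, KO 1 with WT 3 at 0.03 and KO 2 with WT 1 at −0.12. What the positive pairs shared was not tested. Alternatives covered scaling, offsets, filters, summaries, variance models, covariates and each head left out. The fit was tested on simulated data. Figures used matplotlib 3.10.9.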

Additional observations from a re-analysis of the deposited data

How the results depend on the processing

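Of the 9 members and the other pathway genes tested, 0 passed adjusted p 0.05 in limma under any of 21 alternatives. The count over all probe sets, 0 with the settings reported, was 2 with the brightest probe set per gene, 2 with probe sets averaged per gene, 9 with every probe set of the table and 1 with array quality weights, and 0 to 8 with each head left out (8 without KO 1, 1 without WT 1). The number at an unadjusted p under 0.05, 1354, ran from 841 (dimmest 40% left out and 1 probe set per gene) to 2031 (every probe set of the table) with all heads, and from 725 (without KO 2) to 1946 (without WT 3) with a head left out. The cause was not tested, beyond the fewer or more probe sets these settings test. Boc, Gas1, Ptch1, Hhip and Gli1 kept their direction throughout, with Boc from −0.23 to −0.18 and Gas1 from −0.19 to −0.15 over the alternatives with all heads. Gli2 turned to −0.0068 with median centring and −0.0081 with Xist as a covariate. With a head left out, Shh ran from −0.10 to 0.068, Gli2 from −0.013 to 0.040, Gli3 from −0.048 to 0.011 and Cdon from −0.13 to 0.22. Co-receptors minus readouts, with Cdon kept, ran from −0.23 (quantile normalization) to −0.21 (64 added on the linear scale) with all heads. With a head left out they ran from −0.33 to −0.15. Leaving out Cdon, which changes the genes and was chosen after seeing the data, gave −0.31 with all heads. The median of the ciliary transport genes, +0.04, ran from 0.0086 (median centring) to 0.05 (array quality weights) with all heads, quantile normalization giving 0.02, and from 0.02 (without KO 1) to 0.08 (without KO 3) with a head left out. With the replicate number as a block the differences are those reported, Boc had an adjusted p of 0.946, and 0 members and 0 probe sets passed. The median SE over all probe sets, 0.07 log2 units, limits what 3 arrays a group can resolve.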
